A study of Homo sapiens with 45 samples.

Results

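The genes described here are 10 RNA-binding regulators of alternative splicing, taken by symbol from the 29159 genes of the count tables: PTBP1, PTBP2, NOVA1, NOVA2, RBFOX1, RBFOX2, ELAVL2, ELAVL3, ELAVL4 and SRRM4. They were followed in 3 human neuroblastoma cell lines treated with palbociclib (PB), an inhibitor of the cell-cycle kinases CDK4 and CDK6, and the level of PTBP1 was set against that of the neuronal regulators. SK-N-BE(2)C carries amplified MYCN and loss of part of chromosome arm 1p. IMR-32 has amplified MYCN and MEIS1, again with loss on 1p, and SH-SY5Y bears a mutation of ALK with gains on 1q and 17q. All 3 lines are wild type for CDK4 and CDK6 and of the adrenergic type, in which the transcription factors of sympathetic neuroblasts are expressed. Each line was sampled as a control, for which the labels name no agent, after 24 h in 1 μM PB, and after a longer time in 1 μM PB, which was 7 d in SK-N-BE(2)C and 5 d in IMR-32 and SH-SY5Y. Every group holds 5 biological replicates, which the methods of the study define as passages of a line plated in separate experiments, so n = 5 stands for cultures of 1 line and not for tumours. Controls were harvested together with the 24 h cultures, so the longer treatment and its extra time in culture cannot be told apart, nor can 7 against 5 d be told apart from the line.

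Many transcripts of neurons differ from those of other cells in which exons they hold, and a small set of RNA-binding proteins sets those choices. PTBP1 binds pyrimidine-rich stretches of RNA and keeps neuronal exons out of transcripts in dividing and non-neuronal cells. During neuronal differentiation it is lost, its paralogue PTBP2 takes over, and proteins of the NOVA, RBFOX and ELAVL families and SRRM4 promote neuronal exons. Counts per gene, the only measure here, give the amount of each regulator's RNA; they say nothing of which exons were used, nor of protein.

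Gene positions were taken on GRCh37, the build of the counts, and the promoters below are RefSeq sequences on GRCh38.p14, from 250 bases before to 50 bases after a transcription start. The table of promoters held 26 entries for 8 of the 10 genes and none for RBFOX2 and ELAVL3. A promoter each of PTBP1 and NOVA2 is printed, because these were the members that passed both the test and the fold limit of 0.5 (log2) in all 3 lines at the longer time, in opposite directions. CDK4 and CDK6 act on the RB and E2F proteins, so the sequences were searched on both strands for an E2F motif, spelled TTTCCCGC, TTTCGCGC, TTTGCCGC or TTTGGCGC. Capitals mark a match, and no match overlapped a match of another motif.
PTBP1, chr19:797734-798033, plus strand: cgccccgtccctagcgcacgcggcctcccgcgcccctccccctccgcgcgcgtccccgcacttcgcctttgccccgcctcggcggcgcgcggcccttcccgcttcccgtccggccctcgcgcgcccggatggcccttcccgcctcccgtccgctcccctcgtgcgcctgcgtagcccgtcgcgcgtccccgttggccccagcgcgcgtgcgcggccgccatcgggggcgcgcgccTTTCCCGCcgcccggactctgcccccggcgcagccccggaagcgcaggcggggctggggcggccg
NOVA2, chr19:45973816-45974115, minus strand: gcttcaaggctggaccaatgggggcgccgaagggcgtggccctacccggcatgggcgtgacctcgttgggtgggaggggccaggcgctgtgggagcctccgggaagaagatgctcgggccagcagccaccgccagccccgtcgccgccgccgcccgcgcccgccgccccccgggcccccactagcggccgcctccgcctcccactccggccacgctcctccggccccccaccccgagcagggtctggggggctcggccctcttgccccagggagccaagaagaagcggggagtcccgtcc
The PTBP1 promoter holds TTTCCCGC, starting 15 bases before the transcription start, and the second PTBP1 start in the table, at chr19:797202-797501, holds none of the 4 spellings. The NOVA2 promoter holds no match to them either. Among all 35116 promoters of this length 3.31% contain an E2F spelling, and among the 26 promoters of the members 2 do, the other belonging to RBFOX1. An E-box, CACGTG, bound by factors of the MYC family, is present in 7.26% of all promoters and in 2 of the 26. TTTGAA, an element of cell-cycle genes called CHR, is present in 15.2% of all and in 4 of the 26, among them the single PTBP2 promoter. These matches describe letters and no binding was measured.

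Libraries held 13459219 to 25441812 counts, and 1 CPM, the unit used here, which scales a gene's count to its library total, stands for 13.5 to 25.4 counts. All 8 adrenergic markers examined averaged at least 1 CPM in both MYCN-amplified lines, and 7 of 8 did in SH-SY5Y, where tyrosine hydroxylase (TH) was below that. Markers of Schwann cells and glia summed to 1.15 to 14.8 CPM in every library, with SOX10 not among the genes counted. The 5 proliferation markers examined, MKI67 among them, summed to 1675 to 2588 CPM over all controls and to 133 to 342 CPM over all 24 h libraries. At the longer time they summed to 147 to 599 CPM in SK-N-BE(2)C, 605 to 1039 CPM in IMR-32 and 146 to 547 CPM in SH-SY5Y. Replicate 5 of IMR-32 stood apart from its group at all 3 times, with a median absolute log2 difference per gene from the other replicates of 0.28, 0.24 and 0.20, and each IMR-32 result below is also given without it where it moved. Replicate 2 of the IMR-32 24 h group stood almost as far off, at 0.23, with a chi-square per degree of freedom of 40.4 to 86.9 against the other 4 libraries of its group, and the members, QKI and KIF5A are also given without it or without that replicate number where their call changed. In SK-N-BE(2)C, replicates 3, 4 and 5 of the control and 24 h groups had a chi-square of 1.69 to 3.18 per degree of freedom between them, against 7.05 to 23.6 for the other pairs of those groups, so they are more alike than separate passages of this line otherwise were, and at 7 d replicates 4 and 5 were the close pair, at 5.60 against 19.3 to 77.8. No pair of libraries was as close as sampling noise alone would make it.

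In untreated cells, PTBP1 and the ELAVL3 gene of the neuronal Hu family were the most abundant members of the set, while PTBP2 was scarce outside IMR-32. Levels of different genes were compared as CPM per kilobase of annotated exon, and all values in this paragraph but the log2 differences are on that scale (mean ± SD, n = 5 controls). PTBP1 led in SK-N-BE(2)C at 108 ± 3.50 and in SH-SY5Y at 91.7 ± 4.40. Next came ELAVL3, at 79.6 ± 8.23 and 59.5 ± 5.91, and then RBFOX2, at 37.5 ± 2.598 and 40.5 ± 2.65. In IMR-32, ELAVL3 at 90.8 ± 13.04 and PTBP1 at 89.9 ± 13.3 overlapped over their replicates, followed by ELAVL2 at 51.5 ± 4.41, ELAVL4 at 39.3 ± 3.80 and RBFOX2 at 30.6 ± 3.56. The order below these differed between lines. NOVA2, ELAVL2, SRRM4 and NOVA1 followed one another between 3.22 ± 0.833 and 1.89 ± 0.0957 in SK-N-BE(2)C with overlapping neighbours, and RBFOX2 and ELAVL4 overlapped in SH-SY5Y. PTBP2 reached 0.711 ± 0.0602 in SK-N-BE(2)C, 1.04 ± 0.0555 in SH-SY5Y and 3.47 ± 0.533 in IMR-32. RBFOX1 stood last in SK-N-BE(2)C at 0.0578 ± 0.0155 and in SH-SY5Y at 0.00844 ± 0.00629, and NOVA1 stood last in IMR-32 at 0.246 ± 0.107. The exon length spans all annotated isoforms (7.52 kb for PTBP1 and 20.1 kb for PTBP2), which lowers the value of genes with many of them.

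**Figure D1:**
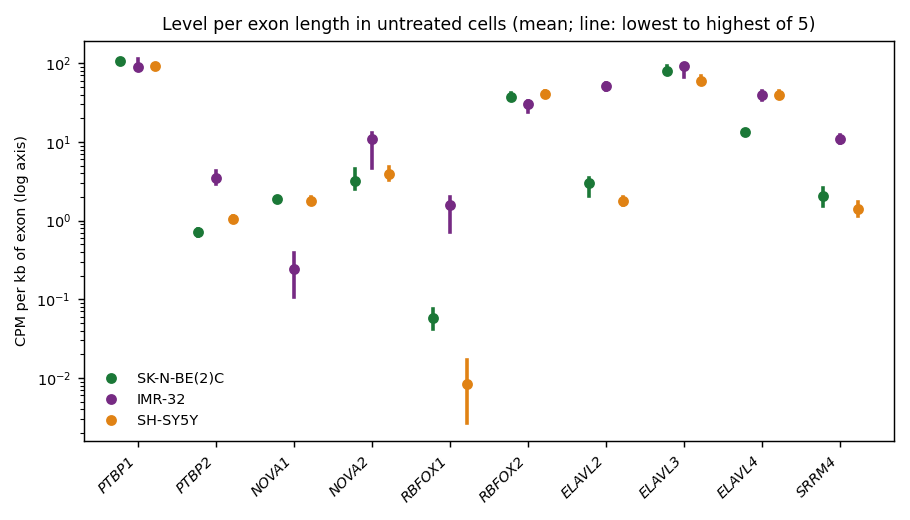
Level of the 10 regulators in control cells, in CPM per kb of annotated exon on a log axis, with the lines side by side for each gene. Points are means of the 5 control libraries, and bars run from the lowest to the highest of them. PTBP1 and ELAVL3 lie at the top in every line, and the mean of RBFOX1 spans from 0.00844 in SH-SY5Y to 1.59 in IMR-32.

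Controls of IMR-32 were called different from both other lines in PTBP2, NOVA1, NOVA2, ELAVL2 and SRRM4. PTBP1 itself stayed within the fold limit of 0.5, with a log2 difference of 0.28 ± 0.09 (adjusted p = 0.00489) between SK-N-BE(2)C and IMR-32, 0.43 ± 0.09 (adjusted p = 3.40e-05) between SK-N-BE(2)C and SH-SY5Y and 0.16 ± 0.09 (adjusted p = 0.109) between IMR-32 and SH-SY5Y. PTBP2 was higher in IMR-32 than in SK-N-BE(2)C, where the log2 difference of SK-N-BE(2)C over IMR-32 was -2.26 ± 0.10 (adjusted p = 2.00e-23). ELAVL2 was the member of the Hu family with the widest gap, at -4.11 ± 0.16 (adjusted p = 8.67e-25) for SK-N-BE(2)C over IMR-32 and 5.06 ± 0.17 (adjusted p = 5.82e-27) for IMR-32 over SH-SY5Y. For the same pairs SRRM4 gave -2.38 ± 0.14 (adjusted p = 9.08e-19) and 3.14 ± 0.15 (adjusted p = 4.34e-22), and NOVA2 -1.75 ± 0.20 (adjusted p = 1.96e-10) and 1.69 ± 0.20 (adjusted p = 4.98e-10). NOVA1 ran the other way and was lowest in IMR-32, at 2.93 ± 0.17 (adjusted p = 1.57e-19) for SK-N-BE(2)C over IMR-32 and -2.63 ± 0.17 (adjusted p = 7.58e-18) for IMR-32 over SH-SY5Y. RBFOX1 was higher in IMR-32 than in SK-N-BE(2)C, at -4.75 ± 0.34 (adjusted p = 5.46e-16) for SK-N-BE(2)C over IMR-32, and in SH-SY5Y it rested on 1 to 5 counts per control library. Of the 10 members, 7 were called between SK-N-BE(2)C and IMR-32, 5 between SK-N-BE(2)C and SH-SY5Y and 7 between IMR-32 and SH-SY5Y, and without RBFOX1, which did not pass the filter on low counts in SH-SY5Y and entered this fit through the other lines, the counts were 6, 4 and 6 of 9. The shares over all 16282 genes were 62.1%, 57.5% and 54.2%. A gene is termed called at an adjusted p under 0.05 in edgeR's quasi-likelihood test with an absolute log2 difference of more than 0.5. Sources used here do not say how the lines were divided over sequencing runs, and a line and any run of its own cannot be told apart.

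PTBP1, the repressor of neuronal exons (GRCh37 chr19:797075-812327, plus strand), fell in all 3 lines within 24 h of PB and was at a lower level still after the longer treatment. PTBP1 stood at 834, 815, 769.7, 797 and 829 CPM in the SK-N-BE(2)C controls, 586, 623, 523, 547 and 559 CPM after 24 h and 442, 325, 318, 416 and 383 CPM after 7 d. In IMR-32, PTBP1 stood at 615, 649.7, 649, 615 and 852 CPM in the controls, 447, 406, 417, 424 and 490.2 CPM after 24 h and 313, 267, 302, 299.5 and 359 CPM after 5 d. In SH-SY5Y, PTBP1 stood at 676, 695, 640.3, 715 and 723 CPM in the controls, 406, 437, 409.6, 436 and 426 CPM after 24 h and 292, 322, 333, 356 and 381 CPM after 5 d. The controls were the highest and the longer treated cells the lowest libraries of each line, and in none of the 9 comparisons did the groups overlap. Group means ± SD (n = 5) passed from 809 ± 26.3 to 568 ± 38.4 and 377 ± 54.4 CPM in SK-N-BE(2)C, from 676 ± 99.9 to 437 ± 33.4 and 308 ± 33.1 CPM in IMR-32, and from 689.6 ± 33.1 to 423 ± 14.4 and 337 ± 33.7 CPM in SH-SY5Y. By then this was a change of -54.7%, -54.8% and -53.4% by the fit. The cells were measured in bulk, so fewer cells with PTBP1 and less PTBP1 RNA per cell cannot be told apart.

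By edgeR's quasi-likelihood test, the log2 fold change of PTBP1 at 24 h was -0.54 ± 0.09 (SE, n = 5 and 5, adjusted p = 7.81e-05) in SK-N-BE(2)C, -0.59 ± 0.10 (adjusted p = 4.77e-04) in IMR-32 and -0.72 ± 0.07 (adjusted p = 2.20e-07) in SH-SY5Y. The longer treatment gave -1.14 ± 0.09 (adjusted p = 7.78e-09), -1.15 ± 0.11 (adjusted p = 1.08e-06) and -1.10 ± 0.07 (adjusted p = 1.18e-09) in the same order. From 24 h to the longer time PTBP1 fell again, with log2 fold changes of -0.60 ± 0.09 (adjusted p = 1.98e-05) in SK-N-BE(2)C and -0.56 ± 0.10 (adjusted p = 8.45e-04) in IMR-32, and the change of -0.39 ± 0.07 (adjusted p = 4.01e-04) in SH-SY5Y passed the test but not the fold limit. Without replicate 5, the IMR-32 values were -0.52 (adjusted p = 1.67e-05) at 24 h, -1.10 (adjusted p = 3.78e-09) at 5 d and -0.58 (adjusted p = 6.20e-06) between the treated times, and without the control of that replicate alone the 24 h value was -0.48 (adjusted p = 4.48e-04), within the fold limit. Taken by themselves, replicates 1 and 2 of SK-N-BE(2)C gave -0.48 (adjusted p = 0.106) at 24 h, which is not a call, and replicates 3 to 5 gave -0.60 (adjusted p = 5.17e-05). The 3 lines could not be separated in this response. In the 6 tests between pairs of lines the responses differed by -0.10 to 0.15 on the log2 scale, each with an SE of 0.13, and the adjusted p-values ran from 0.598 to 0.909.

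**Figure D2:**
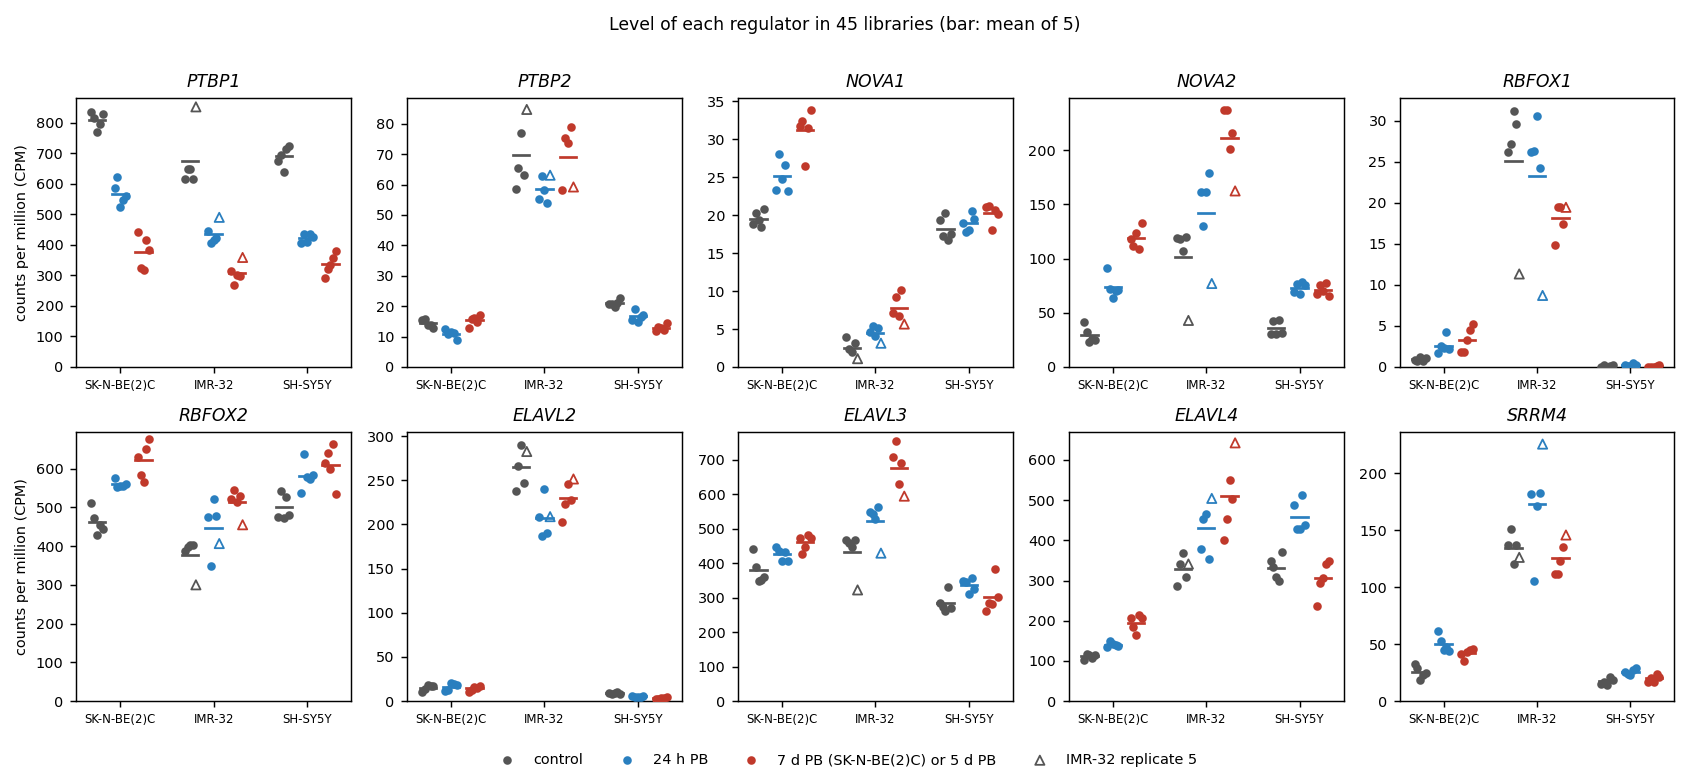
CPM of each regulator in every library on linear axes, by line and by control, 24 h PB and longer PB. Each point is 1 library and open triangles mark replicate 5 of IMR-32; the PTBP1 points step down in all 3 lines, while those of NOVA2 step up from control to 24 h in SK-N-BE(2)C and SH-SY5Y.

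PTBP2, the neuronal paralogue (GRCh37 chr1:97187221-97289294, plus strand), did not rise above control in any line. When PTBP1 is abundant, an exon of the PTBP2 transcript is skipped and the RNA is degraded, so the pair is usually described as changing in opposite directions. PTBP2 measured 15.5, 15.6, 13.9, 13.7 and 12.8 CPM in the SK-N-BE(2)C controls, 12.5, 10.8, 11.5, 11.3 and 8.97 CPM after 24 h and 12.8, 15.7, 16.2, 14.9 and 17.1 CPM after 7 d. In IMR-32, PTBP2 measured 58.6, 65.6, 76.9, 63.1 and 84.7 CPM in the controls, 55.1, 62.7, 58.4, 53.9 and 63.1 CPM after 24 h and 58.1, 75.4, 73.6, 78.9 and 59.2 CPM after 5 d. In SH-SY5Y, PTBP2 measured 20.6, 20.7, 19.8, 21.1 and 22.8 CPM in the controls, 15.6, 19.1, 14.8, 16.6 and 17.2 CPM after 24 h and 11.7, 13.2, 12.9, 12.3 and 14.6 CPM after 5 d. The 24 h libraries of SK-N-BE(2)C lay below both other groups, while its control and 7 d libraries overlapped. The groups of IMR-32 overlapped throughout, and in SH-SY5Y each group lay below the one before it in time. PTBP2 changed by -0.41 ± 0.10 (adjusted p = 0.00289) at 24 h and 0.06 ± 0.10 (adjusted p = 0.627) at 7 d in SK-N-BE(2)C, with 0.47 ± 0.10 (adjusted p = 7.61e-04) between the treated times, and none of these is a call, although the last was one in 4 of 30 alternatives. In IMR-32 it showed -0.21 ± 0.11 (adjusted p = 0.182) and -0.03 ± 0.11 (adjusted p = 0.848). In SH-SY5Y the 24 h value was -0.34 ± 0.08 (adjusted p = 0.00259), within the fold limit, and at 5 d PTBP2 fell, with -0.77 ± 0.09 (adjusted p = 4.39e-07).

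The balance of the paralogues nevertheless moved towards PTBP2 in most comparisons. It was taken in each library as the log2 ratio of PTBP2 to PTBP1 CPM, each with 1 CPM added. The ratio was -5.66, -5.62, -5.70, -5.76 and -5.91 in the SK-N-BE(2)C controls, -5.44, -5.72, -5.40, -5.48 and -5.81 after 24 h and -5.002, -4.29, -4.22, -4.71 and -4.40 after 7 d. IMR-32 gave -3.37, -3.29, -3.06, -3.27 and -3.32 in the controls, -2.996, -2.68, -2.82, -2.95 and -2.94 after 24 h and -2.41, -1.81, -2.02, -1.91 and -2.58 after 5 d. The SH-SY5Y ratios were -4.97, -5.001, -4.95, -5.02 and -4.93 in the controls, -4.62, -4.45, -4.70, -4.64 and -4.55 after 24 h and -4.53, -4.51, -4.59, -4.75 and -4.61 after 5 d. Control and 24 h overlapped in SK-N-BE(2)C, and 24 h and 5 d overlapped in SH-SY5Y; the other 7 comparisons had no overlap. In counts summed over the 5 libraries of a group, each PTBP2 read was matched by 56.1, 52.3 and 24.02 PTBP1 reads in SK-N-BE(2)C, by 9.72, 7.43 and 4.45 in IMR-32 and by 32.9, 25.4 and 26.02 in SH-SY5Y, so PTBP1 still outnumbered PTBP2 in every group. Against control, the mean log2 ratio differed by 1.20 at 7 d in SK-N-BE(2)C, by 0.38 and 1.11 at 24 h and 5 d in IMR-32, and by 0.38 and 0.38 in SH-SY5Y. Between the treated times it differed by 0.73 in IMR-32 and 1.05 in SK-N-BE(2)C. Each of these 7 reached p = 0.00794 in the two-sided exact permutation test, the smallest p that 5 against 5 libraries allow, and 0.0102 after adjustment over 9 tests. The permutation takes the 5 libraries of a group as independent, and the ratio was not tested with the close replicates of SK-N-BE(2)C summed. When same-numbered libraries were paired and their differences sign-flipped, each of the 7 gave an adjusted p of 0.0804 in the exact test, which is no call at 0.05, since 5 pairs allow no p under 0.0625. The 24 h difference of 0.16 in SK-N-BE(2)C gave an exact permutation p of 0.143 (adjusted p = 0.161), and that of -0.0070 between the treated times in SH-SY5Y gave an exact permutation p of 0.913.

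**Figure D3:**
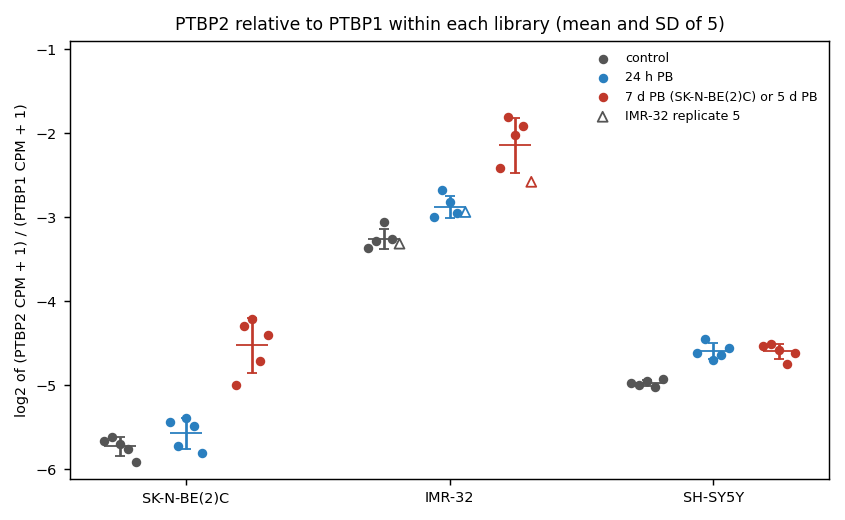
Log2 ratio of PTBP2 to PTBP1 CPM (1 CPM added to each) in every library, by line and treatment. Points are libraries, open triangles mark replicate 5 of IMR-32, and bars give the mean and SD; the means in IMR-32 pass from -3.26 over -2.88 to -2.15, while in SH-SY5Y both treated groups sit at -4.59 and -4.60.

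Among the 9 regulators other than PTBP1, higher calls outnumbered lower ones against control in both MYCN-amplified lines, and SH-SY5Y held both. At 24 h, 3 of 9 were called higher in SK-N-BE(2)C, where 10.9% of all 14055 genes tested were, and none lower, where 10.6% were. In IMR-32 1 of 9 was called higher and none lower (over all 14293 genes 7.87% and 10.5%). In SH-SY5Y, where RBFOX1 was too low to test, 2 of 8 were called higher and 1 lower (over all 14547 genes 10.5% and 11%). At the longer time the counts were 5 of 9 higher and 0 lower in SK-N-BE(2)C (background 24.5% and 22.3%), 4 of 9 higher and 0 lower in IMR-32 (16.6% and 15.5%), and 1 of 8 higher and 2 lower in SH-SY5Y (18.6% and 17.3%). Without replicate 5 of IMR-32, edgeR called RBFOX1 lower there at 5 d (-0.69, adjusted p = 3.06e-05). From 24 h to the longer time, 1 of 9 rose and none fell in SK-N-BE(2)C (17.5% and 14.4%), 1 rose and 1 fell in IMR-32 (10.8% and 8.86%), and none rose and 2 fell in SH-SY5Y (10.5% and 6.23%). With so few genes, 1 call moves these shares by more than 10 percentage points, and DESeq2 gave the same counts in all 9 comparisons. Where edgeR called none lower against control, 1 regulator had a negative log2 fold change at an unadjusted p under 0.05 at 24 h in SK-N-BE(2)C, 1 at 24 h and 1 at 5 d in IMR-32, and 0 at 7 d in SK-N-BE(2)C. From 24 h to the longer time, the counts at an unadjusted p under 0.05 were 0 lower in SK-N-BE(2)C and 0 higher in SH-SY5Y. The median log2 fold change of these regulators at the longer time was 0.63, 0.43 and 0.05 in the 3 lines in the order named, against 0.01, 0.00 and 0.01 over all genes.

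**Figure D4:**
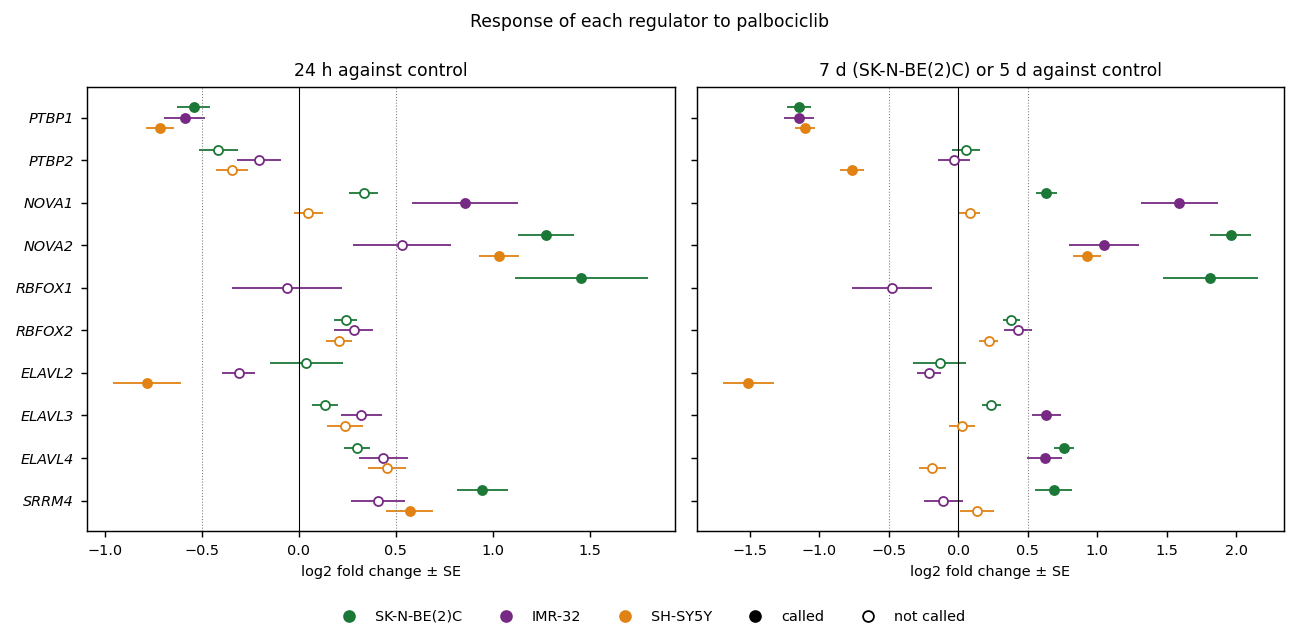
Log2 fold change of each regulator at 24 h and at the longer time against control, by line, with bars of 1 SE. Filled points were called, open points were not, and dotted lines mark the limits of 0.5 in either direction; PTBP1 is the member that lies below the lower line in all 3 lines at both times.

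NOVA2 was the neuronal regulator that rose most widely. The NOVA proteins bind clusters of a short motif in RNA, and NOVA2 (GRCh37 chr19:46436992-46477302, minus strand) is the form of the developing cortex. NOVA2 counted 41.9, 32.2, 23.3, 25.6 and 24.98 CPM in the SK-N-BE(2)C controls, 91.3, 71.7, 63.3, 69.7 and 70.9 CPM after 24 h and 118, 111, 123, 109 and 132 CPM after 7 d. In IMR-32, NOVA2 counted 119, 118, 107, 119.8 and 42.9 CPM in the controls, 161, 129.96, 161, 179 and 76.98 CPM after 24 h and 237, 237, 201, 215 and 162 CPM after 5 d. In SH-SY5Y, NOVA2 counted 30.5, 42.3, 30.03, 43.5 and 31.3 CPM in the controls, 69.01, 76.3, 67.1, 77.9 and 75.4 CPM after 24 h and 66.96, 75.2, 69.6, 77.6 and 65.1 CPM after 5 d. In SK-N-BE(2)C the 3 groups were separate and ascending, and in SH-SY5Y both treated groups lay above the controls and overlapped each other. In IMR-32 the control of replicate 5, at 42.9 CPM, was far below the other 4. NOVA2 rose by 1.27 ± 0.15 (adjusted p = 3.61e-06) at 24 h and 1.96 ± 0.15 (adjusted p = 1.07e-08) at 7 d in SK-N-BE(2)C, and between those times by 0.69 ± 0.14 (adjusted p = 6.14e-04), where replicates 1 and 2 alone gave 0.48 (adjusted p = 0.0698). In SH-SY5Y it rose by 1.03 ± 0.10 (adjusted p = 2.36e-07) at 24 h and 0.93 ± 0.10 (adjusted p = 4.27e-07) at 5 d, with -0.10 ± 0.10 (adjusted p = 0.419) between them. In IMR-32 the 24 h value of 0.53 ± 0.25 (adjusted p = 0.121) was not called and the 5 d value of 1.05 ± 0.25 (adjusted p = 0.00334) was. The 24 h value was called in 3 of 27 alternatives, among them the replicate block with 0.55 (adjusted p = 0.00354) and the fit of 45 libraries with 0.53 (adjusted p = 0.0251). Without replicate 5, IMR-32 gave 0.50 (adjusted p = 1.85e-04) at 24 h, not past the fold limit, 0.94 (adjusted p = 1.50e-07) at 5 d and 0.44 (adjusted p = 5.26e-04) between them. With the replicate number as a block, the rise of 0.57 from 24 h to 5 d in IMR-32 was called (adjusted p = 0.00297), against 0.52 ± 0.25 (adjusted p = 0.127) without it.

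NOVA1 (GRCh37 chr14:26912296-27067239, minus strand), the paralogue of hindbrain and spinal cord, rose in 2 of the 3 lines at the longer time. NOVA1 was found at 18.8, 20.3, 19.3, 18.4 and 20.8 CPM in the SK-N-BE(2)C controls, 23.4, 28.02, 24.7, 26.6 and 23.1 CPM after 24 h and 31.8, 32.4, 26.5, 31.5 and 33.8 CPM after 7 d. In IMR-32, NOVA1 was found at 3.98, 2.40, 2.01, 3.22 and 1.09 CPM in the controls, 4.55, 5.46, 4.07, 5.16 and 3.13 CPM after 24 h and 7.16, 9.21, 6.76, 10.1 and 5.66 CPM after 5 d. In SH-SY5Y, NOVA1 was found at 19.3, 17.3, 20.3, 16.7 and 17.5 CPM in the controls, 18.99, 17.8, 18.1, 20.5 and 19.5 CPM after 24 h and 21.1, 21.3, 18.01, 20.7 and 20.1 CPM after 5 d. Both treated groups of SK-N-BE(2)C lay above its controls, the 5 d group of IMR-32 lay above both others, and in SH-SY5Y all 3 groups shared a range. The log2 fold change at 7 d in SK-N-BE(2)C was 0.63 ± 0.08 (adjusted p = 1.35e-06) and that at 24 h, 0.34 ± 0.08 (adjusted p = 0.00174), was under the fold limit. In IMR-32, starting from the lowest level of any line, NOVA1 rose by 0.86 ± 0.27 (adjusted p = 0.0250) at 24 h, 1.59 ± 0.27 (adjusted p = 2.25e-04) at 5 d and 0.73 ± 0.27 (adjusted p = 0.0428) between them. Without replicate 5 these were 0.77 (adjusted p = 0.00647), 1.49 (adjusted p = 9.29e-06) and 0.72 (adjusted p = 0.00560). The 24 h and the later step were close to the threshold, being called in 20 and 13 of 27 alternatives, with adjusted p-values of up to 0.123 and 0.136, while the 5 d value was called in all 27. Without replicate 2 of the 24 h group the 24 h value of NOVA1 was 0.76 (adjusted p = 0.0610), and without replicate 2 of all 3 groups the later step was 0.77 (adjusted p = 0.108), neither of them a call. SH-SY5Y gave 0.05 ± 0.08 (adjusted p = 0.609) and 0.08 ± 0.07 (adjusted p = 0.354).

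The RBFOX proteins bind UGCAUG and promote or block an exon depending on the side of it on which they bind. RBFOX1 (GRCh37 chr16:5289803-7763342, plus strand), largely restricted to neurons and muscle, was present at very different levels in the lines and moved in 1 of them. RBFOX1 amounted to 0.843, 0.702, 1.20, 0.669 and 1.14 CPM in the SK-N-BE(2)C controls, 1.65, 2.55, 2.35, 4.24 and 2.13 CPM after 24 h and 1.77, 1.78, 3.28, 4.48 and 5.29 CPM after 7 d. In IMR-32, RBFOX1 amounted to 26.2, 27.1, 31.2, 29.5 and 11.3 CPM in the controls, 26.2, 26.3, 30.5, 24.2 and 8.71 CPM after 24 h and 14.8, 19.5, 19.5, 17.4 and 19.4 CPM after 5 d. All treated libraries of SK-N-BE(2)C were above all of its controls, and in IMR-32 replicate 5 was the lowest of its group in control and at 24 h. RBFOX1 rose in SK-N-BE(2)C by 1.46 ± 0.34 (adjusted p = 0.00240) at 24 h and 1.81 ± 0.34 (adjusted p = 1.62e-04) at 7 d, and replicates 1 and 2 alone gave 1.42 (adjusted p = 0.0506) at 24 h, which is not a call. The 7 d value rests on 9 to 24 counts per control library, and the summed counts gave a ratio of 3.65 with a 95% exact counting interval of 2.87 to 4.68. In IMR-32 the 5 d value was -0.48 ± 0.29 (adjusted p = 0.178), and replicate 5 decided it. Without that replicate RBFOX1 fell by 5 d, with a log2 fold change of -0.69 (adjusted p = 3.06e-05), and from 24 h to 5 d, with -0.65 (adjusted p = 9.43e-05). In SH-SY5Y RBFOX1 lay between 0 and 0.501 CPM over the 15 libraries and was not tested.

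RBFOX2 (GRCh37 chr22:36134783-36424872, minus strand), the family member that is also used outside the nervous system, was abundant and changed little. In SK-N-BE(2)C it ranged over 428 to 512 CPM in controls, 553 to 575 at 24 h and 566 to 676 at 7 d. In IMR-32 the ranges were 300.1 to 403, 349.5 to 522 and 455 to 544 CPM, and in SH-SY5Y 473 to 543, 536 to 638 and 536 to 664 CPM. Treated means were above the control mean in all 6 comparisons, with no overlap at either time in SK-N-BE(2)C nor at 5 d in IMR-32. The longer treatment gave 0.38 ± 0.06 (adjusted p = 2.54e-05) in SK-N-BE(2)C, 0.43 ± 0.10 (adjusted p = 0.00225) in IMR-32 and 0.22 ± 0.07 (adjusted p = 0.00934) in SH-SY5Y, all within the fold limit and so not called.

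ELAVL2, ELAVL3 and ELAVL4 encode the neuronal Hu proteins HuB, HuC and HuD, which bind AU-rich RNA, stabilise transcripts and take part in splicing. They did not move as a family. ELAVL2 (GRCh37 chr9:23690102-23826335, minus strand) fell in SH-SY5Y and was not called in the other lines. In SH-SY5Y, ELAVL2 amounted to 9.58, 8.10, 8.76, 10.2 and 8.41 CPM in the controls, 5.70, 5.12, 4.51, 5.10 and 5.97 CPM after 24 h and 2.02, 2.62, 3.43, 3.41 and 5.13 CPM after 5 d. ELAVL2 amounted to 10.6, 13.3, 18.1, 17.6 and 16.5 CPM in the SK-N-BE(2)C controls, 10.9, 12.3, 19.9, 18.8 and 18.2 CPM after 24 h and 10.1, 12.4, 16.4, 14.97 and 17.3 CPM after 7 d. In IMR-32, ELAVL2 amounted to 237, 266, 290.3, 246 and 283 CPM in the controls, 209, 187, 241, 191 and 209 CPM after 24 h and 203, 223, 246, 228 and 252 CPM after 5 d. In SH-SY5Y no treated library reached the lowest control. The groups of SK-N-BE(2)C, in each of which replicates 1 and 2 were the lowest, overlapped, as they did in IMR-32. The log2 fold change in SH-SY5Y was -0.78 ± 0.17 (adjusted p = 0.00108) at 24 h, -1.51 ± 0.18 (adjusted p = 9.33e-07) at 5 d and -0.73 ± 0.19 (adjusted p = 0.00444) between them. For SK-N-BE(2)C the values were 0.04 ± 0.19 (adjusted p = 0.884) and -0.13 ± 0.19 (adjusted p = 0.542), and in IMR-32 -0.31 ± 0.09 (adjusted p = 0.0114) and -0.21 ± 0.09 (adjusted p = 0.0491), none of them called.

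ELAVL3 (GRCh37 chr19:11562141-11591861, minus strand) rose in IMR-32 at 5 d. In IMR-32, ELAVL3 gave 467, 459, 446, 467 and 322 CPM in the controls, 549.5, 543, 529, 563 and 429 CPM after 24 h and 709, 756, 629, 691 and 594 CPM after 5 d. The 5 d libraries lay above all others, and replicate 5 was the lowest of each group. The change was 0.63 ± 0.11 (adjusted p = 1.78e-04) at 5 d and 0.32 ± 0.11 (adjusted p = 0.0285) at 24 h, the latter within the fold limit, and without replicate 5 the 5 d value was 0.59 (adjusted p = 2.06e-06). SK-N-BE(2)C passed from 379 ± 39.2 to 426 ± 18.5 and 461 ± 22.9 CPM, a longer change of 0.24 ± 0.07 (adjusted p = 0.00476), and SH-SY5Y from 283 ± 28.1 to 337 ± 18.7 and 303 ± 47.8 CPM, with 0.03 ± 0.09 (adjusted p = 0.819); neither is a call. Of the annotated exon bases of ELAVL3, 5.38% are shared with other genes of the same strand.

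ELAVL4 (GRCh37 chr1:50489701-50669444, plus strand), which marks early neurons, rose by the longer time in both MYCN-amplified lines and fell between the treated times in SH-SY5Y. ELAVL4 reached 103, 117, 115, 108 and 115 CPM in the SK-N-BE(2)C controls, 134, 150.2, 143, 139.6 and 137 CPM after 24 h and 208, 184, 163, 214 and 206 CPM after 7 d. In IMR-32, ELAVL4 reached 287, 340.1, 369, 308 and 341 CPM in the controls, 379.6, 453, 467, 355 and 504 CPM after 24 h and 401, 453, 550.04, 504 and 643 CPM after 5 d. In SH-SY5Y, ELAVL4 reached 348, 334, 309.6, 298 and 372 CPM in the controls, 489, 427, 427, 512 and 438 CPM after 24 h and 237, 294, 305, 342 and 349 CPM after 5 d. The groups of SK-N-BE(2)C were separate and ascending. In SH-SY5Y the 24 h libraries were above both other groups, which overlapped each other. Against control the longer treatment gave a log2 fold change of 0.76 ± 0.07 (adjusted p = 5.82e-08) in SK-N-BE(2)C and 0.62 ± 0.13 (adjusted p = 9.89e-04) in IMR-32, or 0.54 (adjusted p = 8.68e-04) without replicate 5 of the latter. SH-SY5Y showed 0.45 ± 0.10 (adjusted p = 8.18e-04) at 24 h, within the fold limit, -0.19 ± 0.10 (adjusted p = 0.0975) at 5 d against control, and -0.64 ± 0.10 (adjusted p = 7.19e-05) from 24 h to 5 d.

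SRRM4 (GRCh37 chr12:119419346-119600856, plus strand), a neural serine and arginine repeat protein that brings microexons into neuronal transcripts, had its highest mean at 24 h in all 3 lines. SRRM4 read 32.1, 28.9, 18.9, 22.6 and 24.3 CPM in the SK-N-BE(2)C controls, 61.1, 52.9, 45.1, 47.3 and 43.8 CPM after 24 h and 41.6, 35.4, 42.8, 45.03 and 45.8 CPM after 7 d. In IMR-32, SRRM4 read 137, 151, 120.1, 137 and 126 CPM in the controls, 181, 106, 171, 183 and 225 CPM after 24 h and 111, 111, 123, 135 and 146 CPM after 5 d. In SH-SY5Y, SRRM4 read 15.2, 17.1, 13.9, 21.2 and 18.7 CPM in the controls, 25.5, 23.4, 23.3, 27.6 and 29.3 CPM after 24 h and 17.1, 20.6, 16.9, 23.5 and 21.1 CPM after 5 d. Both treated groups of SK-N-BE(2)C and the 24 h group of SH-SY5Y were above their controls. In IMR-32 the 24 h libraries spread over the widest range, from 106 to 225 CPM, and overlapped both other groups, 106 CPM being replicate 2 and the other 4 libraries lying above all controls. SRRM4 rose at 24 h by 0.95 ± 0.13 (adjusted p = 2.55e-05) in SK-N-BE(2)C and 0.57 ± 0.12 (adjusted p = 7.01e-04) in SH-SY5Y, and the value in IMR-32 was 0.41 ± 0.14 (adjusted p = 0.0344), within the fold limit. Without replicate 2 of that 24 h group it was 0.53 (adjusted p = 0.00105), which is a call. SRRM4 was still called at 7 d in SK-N-BE(2)C, with 0.69 ± 0.13 (adjusted p = 2.20e-04), and not in IMR-32, with -0.11 ± 0.14 (adjusted p = 0.540), nor in SH-SY5Y, with 0.13 ± 0.12 (adjusted p = 0.345), at 5 d. The call in SK-N-BE(2)C was carried by replicates 3 to 5, which alone gave 0.97 (adjusted p = 5.26e-07), whereas replicates 1 and 2 gave 0.29 (adjusted p = 0.134). From 24 h to the longer time the log2 fold change was -0.26 ± 0.13 (adjusted p = 0.0970), -0.52 ± 0.14 (adjusted p = 0.0102) and -0.44 ± 0.12 (adjusted p = 0.00693) in the 3 lines, and the middle one, a call, was -0.47 (adjusted p = 0.00709) without replicate 5, which is within the fold limit, and was called in 21 of 27 alternatives.

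Whether the lines differed in their response was tested directly in a fit of all 45 libraries. At 24 h 1 of the 10 regulators was called in each pair of lines, where 4.49% of all genes were for SK-N-BE(2)C and IMR-32, 2.04% for SK-N-BE(2)C and SH-SY5Y and 3.07% for IMR-32 and SH-SY5Y. These were RBFOX1, with a response higher in SK-N-BE(2)C than in IMR-32 by 1.52 ± 0.45 (adjusted p = 0.0306), ELAVL2, higher in SK-N-BE(2)C than in SH-SY5Y by 0.79 ± 0.23 (adjusted p = 0.0447), and NOVA1, higher in IMR-32 than in SH-SY5Y by 0.76 ± 0.23 (adjusted p = 0.0442). With the replicate number as a block 4, 1 and 2 were called at 24 h in these pairs, and without replicate 5 of IMR-32 3, 1 and 2. At the longer time 4, 6 and 5 of the 10 were called in the same pairs, beside 23.9%, 21.2% and 20.8% of all genes. PTBP2, NOVA1 and 2 of the Hu genes were called between SH-SY5Y and both other lines, and of these NOVA1 was also called between SK-N-BE(2)C and IMR-32. The response of PTBP2 was higher than in SH-SY5Y by 0.79 ± 0.14 (adjusted p = 2.77e-05) in SK-N-BE(2)C and 0.68 ± 0.14 (adjusted p = 1.62e-04) in IMR-32, that of ELAVL2 by 1.35 ± 0.24 (adjusted p = 2.79e-05) and 1.24 ± 0.23 (adjusted p = 5.65e-05), and that of ELAVL4 by 0.92 ± 0.15 (adjusted p = 7.64e-06) and 0.75 ± 0.15 (adjusted p = 1.47e-04). NOVA2 responded more in SK-N-BE(2)C than in IMR-32, by 0.94 ± 0.27 (adjusted p = 0.00580), and than in SH-SY5Y, by 1.004 ± 0.27 (adjusted p = 0.00431). NOVA1 responded most in IMR-32, with -0.91 ± 0.22 (adjusted p = 0.00136) for SK-N-BE(2)C minus IMR-32 and 1.43 ± 0.22 (adjusted p = 4.21e-06) for IMR-32 minus SH-SY5Y, followed by 0.52 ± 0.21 (adjusted p = 0.0480) for SK-N-BE(2)C minus SH-SY5Y. SRRM4 was higher in SK-N-BE(2)C by 0.82 ± 0.19 (adjusted p = 8.80e-04) over IMR-32 and 0.52 ± 0.20 (adjusted p = 0.0411) over SH-SY5Y. RBFOX1 responded more in SK-N-BE(2)C than in IMR-32, by 2.32 ± 0.45 (adjusted p = 8.79e-05), and ELAVL3 differed by 0.55 ± 0.13 (adjusted p = 0.00159) between IMR-32 and SH-SY5Y. Since SK-N-BE(2)C was treated for 7 d, its longer differences from the others mix line and time.

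Genes of neuronal structure moved beside these regulators. The summed level of TUBB3, MAP2, DCX, STMN2, SNAP25 and SYP was 1658 to 1897 CPM in SK-N-BE(2)C controls, 2412 to 2606 at 24 h and 3154 to 3381 at 7 d. In IMR-32 it was 804 to 2663, 1589.8 to 4128 and 3233 to 5747 CPM, and in SH-SY5Y 1528 to 1711, 2238 to 2442 and 1820.1 to 2309 CPM. In each line both treated ranges reached above the control range, and in SH-SY5Y the 24 h range reached above that of 5 d. The lowest IMR-32 control was replicate 5, the library with the highest PTBP1 and the lowest NOVA2 of its group, in which 5 mesenchymal markers summed to 168 CPM, the highest of the IMR-32 libraries. The same 5 mesenchymal markers summed in SK-N-BE(2)C controls to 90.6 to 109 CPM, at 24 h to 126 to 142 and at 7 d to 148 to 312 CPM, and in SH-SY5Y to 169 to 219, 95.99 to 177 and 68.9 to 111 CPM. The fibronectin gene FN1, with means of 36.5 CPM in the controls and 112 CPM at 7 d, made up most of the rise in SK-N-BE(2)C, where 1 of the 4 markers tested was called higher and 2 lower at 7 d. In IMR-32 the 5 spanned 38.03 to 168, 16.8 to 78.2 and 35.04 to 63.96 CPM. The 8 adrenergic markers summed to 2077 to 2390.3, 2933 to 3147 and 2571 to 3089 CPM in SK-N-BE(2)C, 2024 to 3076, 3176 to 3982 and 2891 to 3527 CPM in IMR-32, and 3909 to 5163, 5715 to 7537 and 4075 to 5854 CPM in SH-SY5Y, and these sums were above the controls at 24 h in each line. By gene, 1, 4 and 2 of the 8 were called higher at 24 h in these lines, beside 10.9%, 7.87% and 10.5% of all genes, and 0 lower. At the longer time 0, 1 and 1 were called higher, beside 24.5%, 16.6% and 18.6% of all genes. In each line 1 was called lower then, beside 22.3%, 15.5% and 17.3%. The part of these markers and of the proliferation markers in the changes of the regulators was not tested.

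To place each regulator among all genes, its CPM on a log2 scale was centred on the mean of each line and correlated over the 45 libraries with the genes tested in all 3 lines. These r values are descriptions; the libraries share their treatment groups, so any pair of genes that moved with PB correlates. Nearest to PTBP1 were IPO5 (r = 0.97), SYNCRIP (r = 0.96) and DAZAP1 (r = 0.96), of which SYNCRIP and DAZAP1 also encode RNA-binding proteins. Nearest to NOVA2 were ABAT (r = 0.96), CTIF (r = 0.95) and CLSTN3 (r = 0.95), and nearest to RBFOX2 MGRN1 (r = 0.91), CTIF (r = 0.90) and TTLL11 (r = 0.90), with CTIF on both lists. NOVA1 was closest to PDZD7 (r = 0.90), SNAP91 (r = 0.88) and MYT1L (r = 0.87), and ELAVL3 to SNAP91 (r = 0.89) and TUBB2A (r = 0.89). The genes closest to ELAVL4 were INA (r = 0.82), ZNF772 (r = 0.79) and DCTN4 (r = 0.79), those closest to ELAVL2 CCAR1 (r = 0.81), FHL2 (r = 0.81) and SCCPDH (r = 0.80), those closest to SRRM4 ABCC1 (r = 0.83), FKBP10 (r = 0.81) and NBAS (r = 0.81), and those closest to PTBP2 CASP2 (r = 0.83), ZNF483 (r = 0.78) and DDX6 (r = 0.77). PTBP1 and NOVA2 thus had neighbours at a rounded r of 0.95 or more, and the closest neighbours of PTBP2, ELAVL2, ELAVL4 and SRRM4 had a rounded r of 0.81 to 0.83.

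Other regulators of tissue-specific splicing had calls in both directions. Of 29 listed, 28 were in the tables, and 26 were tested in IMR-32, 25 in SH-SY5Y, and 22 in SK-N-BE(2)C. By the longer time 5, 6 and 5 were called higher (SK-N-BE(2)C named before IMR-32, and SH-SY5Y last) and 5, 4 and 8 lower, which makes 16 and 17 calls over the 3 lines, or 21.9% and 23.3% of 73 values. Over all genes 16.6% to 24.5% were called higher and 15.5% to 22.3% lower. At 24 h 11 were called higher and 9 lower, or 15.1% and 12.3%, where 7.87% to 10.9% and 10.5% to 11% of all genes were. Their median log2 fold change at the longer time was 0.06, -0.14 and -0.15. The CELF family, whose members 3 to 6 are largely neuronal, supplied the genes that rose in all 3 lines. CELF3 rose by 1.75 ± 0.19 (adjusted p = 9.32e-07) in SK-N-BE(2)C, 1.59 ± 0.20 (adjusted p = 1.81e-05) in IMR-32 and 1.21 ± 0.08 (adjusted p = 2.09e-09) in SH-SY5Y, and was already called at 24 h in each, with 0.58, 0.89 and 0.84. For CELF5 the values were 3.45, 2.02 and 1.39, the first from 0 to 8 counts per control library, and for CELF6 1.66, 1.25 and 1.67, a gene 93.3% of whose exon bases are shared with other genes on its strand and whose counts are therefore uncertain. CELF4 rose in IMR-32 (1.22) and SK-N-BE(2)C (1.82) and had 0.34 in SH-SY5Y. CELF2 appeared in SH-SY5Y at 5 d, where 1 to 4 counts per control library became 32 to 98, a ratio of 40.97 of the summed counts with a 95% exact counting interval of 22.02 to 86.2. QKI, a regulator of glial and mesenchymal splicing, fell in all 3 lines at both times, although without replicate 2 of the IMR-32 24 h group the value there, -0.61 (adjusted p = 0.0508), was not a call. Its CPM passed from 171 over 101 to 74.1 in SK-N-BE(2)C, from 146 over 89.3 to 51.3 in IMR-32 and from 153 over 90.6 to 88.99 in SH-SY5Y, with longer log2 fold changes of -1.25 ± 0.09 (adjusted p = 5.17e-09), -1.52 ± 0.21 (adjusted p = 3.99e-05) and -0.85 ± 0.05 (adjusted p = 9.69e-10). MBNL3, of the muscleblind family, fell at the longer time in IMR-32 (-1.74) and SH-SY5Y (-1.70) and had 0.34 in SK-N-BE(2)C, which was not called. ESRP1, an epithelial regulator, was tested in IMR-32, where it fell by 1.15 on the log2 scale from a mean of 0.770 CPM.

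Transcripts that PTBP1 is known to hold down through retained introns or a skipped exon had calls in 1 direction. Of 4 described, each tested in 3 lines, 3 of 12 values were called higher at 24 h, 9 of 12 at the longer time and 8 of 12 between the treated times, where the shares of all genes called higher were 7.87% to 10.9%, 16.6% to 24.5% and 10.5% to 17.5%, and 0 were called lower in any of these comparisons by edgeR or DESeq2, which called 3, 8 and 8 higher. Over all genes 10.5% to 11%, 15.5% to 22.3% and 6.23% to 14.4% were called lower in the same comparisons by edgeR. Whether the share of these transcripts called higher differed between the times was not tested. At an unadjusted p under 0.05 the same 4 genes gave 6, 10 and 10 higher and 0 lower. Their median log2 fold change at the longer time was 0.90, 0.89 and 0.71, the lines being named in the order used above. KIF5A, a neuronal kinesin, rose by 1.58 ± 0.10 (adjusted p = 8.03e-10), 2.01 ± 0.31 (adjusted p = 1.24e-04) and 1.04 ± 0.11 (adjusted p = 3.07e-07) in that order. VAMP2, a synaptic vesicle protein, rose by 0.80 ± 0.12 (adjusted p = 1.60e-05), 1.27 ± 0.16 (adjusted p = 1.29e-05) and 0.66 ± 0.06 (adjusted p = 3.13e-08), and 11.9% of its exon bases are shared with genes on its strand. DLG4, which encodes the postsynaptic scaffold PSD-95, rose in SK-N-BE(2)C (1.01) and SH-SY5Y (0.77) and had 0.42 in IMR-32. SV2A, another vesicle protein, rose in IMR-32 (0.51) and had 0.10 and 0.01 in SK-N-BE(2)C and SH-SY5Y. At 24 h, when PTBP1 had already fallen, VAMP2 had 0.02, 0.66 and 0.07, of which the IMR-32 value is the sole call. KIF5A was called early in IMR-32 at 0.86 and SH-SY5Y at 0.67, and had 0.38 in SK-N-BE(2)C, but without replicate 2 of all 3 groups the IMR-32 value was not a call (0.99, adjusted p = 0.0604). All 4 are also genes of the synapse or axon, and the summed levels of the markers of neuronal structure, given above, changed over the same times. The part of PTBP1 in their change was not tested.

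REST, a repressor of neuronal genes whose own transcript is a target of SRRM4, and its corepressors showed few calls. Of 9 listed, 8 were tested in each line, since EHMT2 had 0 to 5 counts per library. By edgeR 0 of 24 values were called in either direction at 24 h and between the treated times, and by DESeq2 0 as well, with 2 higher and 10 lower at 24 h and 2 higher and 11 lower between the treated times at an unadjusted p under 0.05. Over all genes edgeR called 7.87% to 10.9% higher and 10.5% to 11% lower at 24 h. Between the treated times these shares were 10.5% to 17.5% and 6.23% to 14.4%. At the longer time 3 of 24 values (12.5%) were called lower by edgeR and 4 by DESeq2, and 0 higher by either. The edgeR shares of all genes were then 15.5% to 22.3% lower and 16.6% to 24.5% higher. By edgeR HDAC1 (-0.54) and SIN3A (-0.60) fell in SK-N-BE(2)C and REST in IMR-32. In IMR-32, REST counted 8.27, 9.47, 8.55, 6.27 and 50.4 CPM in the controls and 1.86, 2.997, 4.30, 3.40 and 5.88 CPM at 5 d. Replicate 5 of the controls held most of this difference. The log2 fold change of -2.19 ± 0.78 (adjusted p = 0.0298) became -1.14 (adjusted p = 0.165) without that 1 library and -1.38 (adjusted p = 2.91e-05) without replicate 5 of all 3 groups, and without replicate 2 of all 3 it was -2.27 (adjusted p = 0.0612). HDAC2 had -0.45, -0.39 and -0.48 in the 3 lines at the longer time, within the fold limit, and REST -0.88 and -0.50 in SK-N-BE(2)C and SH-SY5Y, not called. With the replicate number as a block both were called (-0.90, adjusted p = 0.0417, and -0.50, adjusted p = 5.05e-05), as was REST at 24 h in IMR-32 (-0.80, adjusted p = 0.0353), and the list had 1, 5 and 1 lower calls at 24 h, at the longer time and between the treated times.

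**Figure D5:**
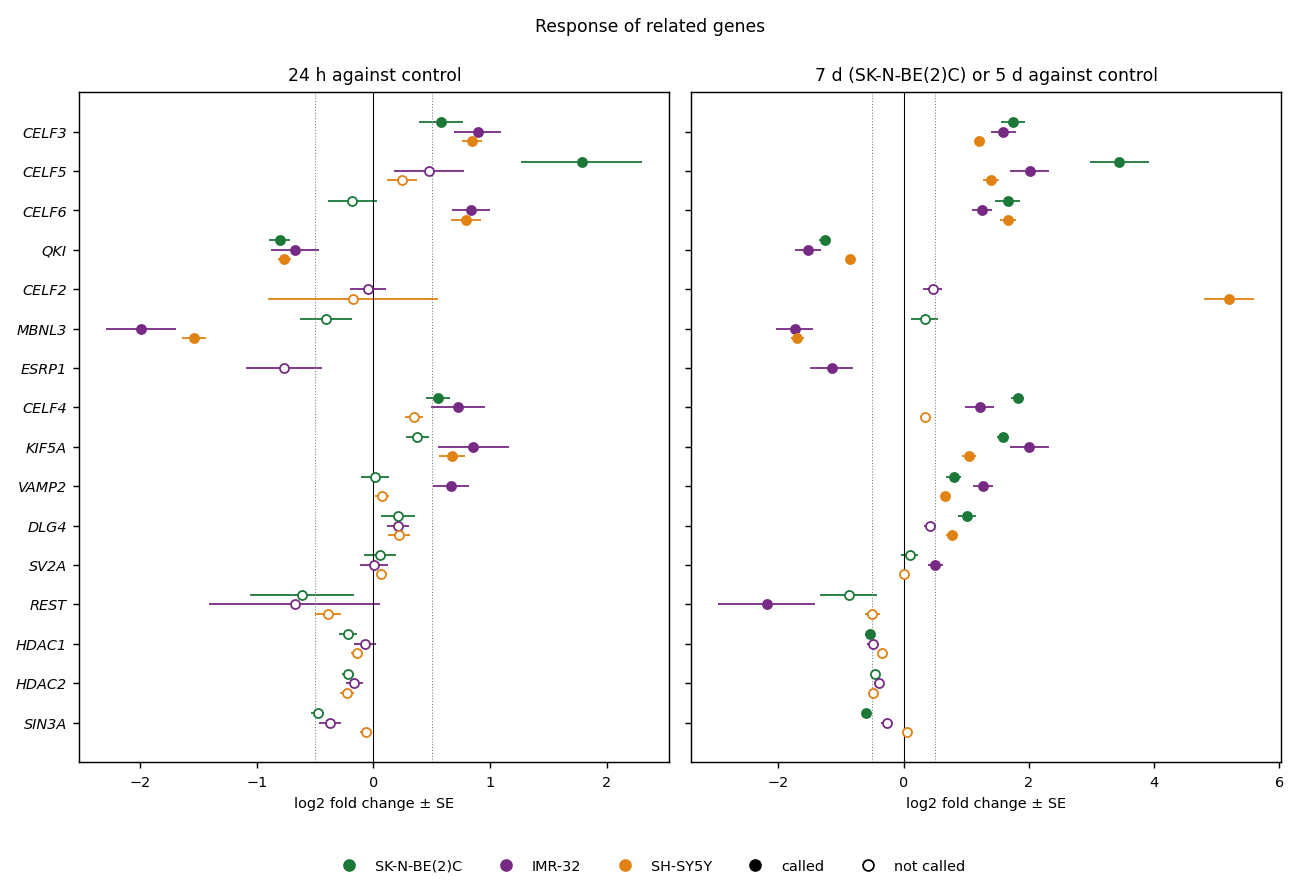
Log2 fold change at 24 h and at the longer time of the named genes of the 3 related lists, by line, with bars of 1 SE. Filled points were called and open points were not, and dotted lines mark 0.5 in either direction; at the longer time CELF3, CELF5, CELF6, KIF5A and VAMP2 lie above the upper line in all 3 lines and QKI lies below the lower one.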

How the data were processed

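RNA from 45 cultures was sequenced, 5 per group in 9 groups. Per the labels and the study's methods, directional libraries of polyA RNA were sequenced paired-end (NovaSeq). The deposited counts per gene were made by the authors with Trim Galore 0.6.4 (minimum phred score 20) and STAR 2.6.1d against hg19, as the submitters' processing notes name them; the counted strand and the annotation are not given in the sources used here, and reads of an antisense partner cannot be told apart. The deposited CPM tables and the authors' DESeq2 1.32.0 comparisons, which hold shrunken fold changes and adjusted p-values, were not used.

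The members and gene lists were chosen with earlier results of these data known, the related lists from general knowledge. The genes named from those lists are, at the longer time, those called in the same direction in every line and up to 4 more per list by mean absolute log2 fold change, and for each member tested in all 3 lines the 3 genes of highest Pearson r. A gene of a related list and a neighbour of ELAVL3 are not reported here. The tests used edgeR 4.0.16 in R 4.3.3. Each line's 15 libraries were scaled by TMM, filtered with filterByExpr (10 counts, 15 in total, share 0.7) and fitted by robust quasi-likelihood. Of 29159 genes this tested 14293 in IMR-32, 14547 in SH-SY5Y and 14055 in SK-N-BE(2)C, at a common biological coefficient of variation of 19.8%, 11.2% and 13.8%. p-values were adjusted by Benjamini and Hochberg over all genes tested, and SE is the fold change over the square root of F. One fit of 45 libraries over 16282 genes tested responses and controls between lines. The paralogue ratio used an exact permutation test, adjusted over 9 tests. Counting intervals are exact and cover counting error only. Gene models are GENCODE v44 lifted to GRCh37, with exon length as the union over isoforms. The scripts were tested on simulated data.

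Same-numbered libraries of a line may share a passage. After group means were removed, every same-number correlation was over 0.1 in 6 of 9 comparisons; the lowest were 0.368 and 0.107 (24 h and longer against control in SK-N-BE(2)C), 0.122 and 0.116 (longer against control and against 24 h in IMR-32), and 0.306 and 0.176 (24 h against control and longer against 24 h in SH-SY5Y). The other 3 had lowest values of -0.0048 (longer against 24 h in SK-N-BE(2)C), 0.072 (24 h in IMR-32) and 0.097 (longer against control in SH-SY5Y). Between libraries of different numbers the highest correlation of a comparison was 0.232 to 0.578. For longer against 24 h it was above the highest same-number value in SK-N-BE(2)C (0.577 against 0.549) and SH-SY5Y (0.355 against 0.346), and below it in the other comparisons. Whether same-numbered libraries share a passage is not settled by these values. Alternatives were other scalings and filters, DESeq2 1.42.0, a replicate block, a fit of 45 libraries, other fold limits and each library left out, with those on replicates 3 to 5 of SK-N-BE(2)C and replicate 5 of IMR-32 chosen after seeing the data. Libraries treated with other agents and chromatin data were not analysed here.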

Additional observations from a re-analysis of the deposited data

Results flagged for a closer look

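Replicate 5 of IMR-32 lay beyond the other 4 libraries of its group in 7 of 33 groups of 5 values examined in that line by Dixon's test at its 95% limit of 0.71, none of the 63 groups of the other lines had such a library, and chance marks about 1 group in 20. In the control of that replicate PTBP1 stood at 852 CPM, against 615 to 650 CPM in the others, whereas NOVA2 at 42.9 CPM (others 107 to 120), RBFOX1 at 11.3 CPM (26.2 to 31.2), RBFOX2 at 300.1 CPM (389 to 403) and ELAVL3 at 322 CPM (446 to 467) lay below. After 24 h the same replicate had RBFOX1 at 8.71 CPM (others 24.2 to 30.5) and ELAVL3 at 429 CPM (529 to 563). At 5 d none of the members of this replicate was set apart in that way.

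The tests between lines picked out 18 responses, given as log2 differences of the first line minus the second. At 24 h these were RBFOX1 in SK-N-BE(2)C minus IMR-32 (1.52), ELAVL2 in SK-N-BE(2)C minus SH-SY5Y (0.79) and NOVA1 in IMR-32 minus SH-SY5Y (0.76). At the longer time SK-N-BE(2)C minus IMR-32 gave NOVA1 (-0.91), NOVA2 (0.94), RBFOX1 (2.32) and SRRM4 (0.82). SK-N-BE(2)C minus SH-SY5Y gave PTBP2 (0.79), NOVA1 (0.52), NOVA2 (1.004), ELAVL2 (1.35), ELAVL4 (0.92) and SRRM4 (0.52). IMR-32 minus SH-SY5Y gave PTBP2 (0.68), NOVA1 (1.43), ELAVL2 (1.24), ELAVL3 (0.55) and ELAVL4 (0.75). NOVA2 is absent from the last group, where its response differed by 0.06, and PTBP1 was picked out in none of the 6 tests.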

How the results depend on the processing

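All 252 values of the PTBP1 response over the alternatives were negative, and 223 of the 225 in the 8 called comparisons stayed called; the 27 of SH-SY5Y between the treated times stayed within the fold limit. The exceptions, both at 24 h, were -0.48 from replicates 1 and 2 of SK-N-BE(2)C alone, and IMR-32 over the range of -0.63 to -0.48 when 1 library was left out, where leaving out control replicate 5 gave the latter. All 60 values of the control levels between lines kept their call under other scaling and without replicate 5 of IMR-32. The counts of other splicing regulators and of the PTBP1-lowered transcripts stayed within 1.5 times under all alternatives run. Depth limited RBFOX1 in SH-SY5Y, at 0 to 0.501 CPM and below the filter of that line, and 5 cultures of a single line per group limit every other value.

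Counts of members depend on the fold limit, because several moved by close to 0.5. With no limit, the counts called higher at 24 h were 5 in IMR-32, 5 in SH-SY5Y and 6 in SK-N-BE(2)C (1, 2 and 3 with it), those lower 2 in each MYCN-amplified line (1 and 1), at the longer time 2 lower in IMR-32 (1) and 2 higher in SH-SY5Y (1), and between the treated times 4 higher in SK-N-BE(2)C (1), 2 higher in IMR-32 (1) and 5 lower in SH-SY5Y (2). With a limit of 1, no member stayed called lower at 24 h in any line, 0 higher at 24 h in IMR-32, 1 higher at 24 h in SH-SY5Y, 2, 2 and 0 higher at the longer time in the 3 lines, and 0 in either direction between the treated times. The replicate block gave 2 higher at 24 h and 2 higher between the treated times in IMR-32 (1 and 1), the fit of 45 libraries 2 higher at 24 h there, no filter 0 higher and library size alone 1 lower between the treated times there. In SK-N-BE(2)C, replicates 1 and 2 alone gave 0 lower at 24 h and 0 higher and 2 lower between the treated times, and replicates 3 to 5 alone 2 higher there. Leaving out 1 library or replicate number gave, between the treated times, 1 to 2 higher for SK-N-BE(2)C; for IMR-32 it gave 0 to 2 higher and 0 to 1 lower at 24 h, 1 to 2 lower at 5 d, and 0 to 2 higher and 1 to 2 lower between the treated times.

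REST and its corepressors gave lower counts of 1 at 24 h, 5 at the longer time and 1 between the treated times under the replicate block (0, 3 and 0 without it), 5 at the longer time under RLE size factors, and 1 between the treated times in the fit of 45 libraries; with 1 library left out these were 0 to 1 at 24 h and 2 to 6 at the longer time, 2 without replicate 2.

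The ratio tests of the 7 comparisons with no overlap, with differences of 1.20, 1.05, 0.38, 1.11, 0.73, 0.38 and 0.38, lost their call when pairs of the same replicate number were sign-flipped (adjusted p = 0.0804), since 5 pairs allow no p under 0.0625. The SH-SY5Y difference between the treated times stayed between -0.034 and 0.030 with 1 library left out.

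Among differences between lines, the replicate block added calls at 24 h for NOVA1 (-0.53), NOVA2 (0.74) and SRRM4 (0.58) in SK-N-BE(2)C minus IMR-32 and for NOVA2 (-0.52) in IMR-32 minus SH-SY5Y. IMR-32 without replicate 5 gave 0.78 for NOVA2 and 0.66 for SRRM4 at 24 h in SK-N-BE(2)C minus IMR-32, -0.56 for NOVA2 in IMR-32 minus SH-SY5Y and, at the longer time, 2.35 for RBFOX1 in SK-N-BE(2)C minus SH-SY5Y, all past the limits, though the last rests on a gene that failed the filter in SH-SY5Y. It turned the sign of uncalled values, to -0.015 at 24 h and -0.013 at the longer time for PTBP1, -0.024 for PTBP2 and 0.010 for RBFOX2 in SK-N-BE(2)C minus IMR-32, and -0.046 for NOVA2 and -0.17 for RBFOX1 in IMR-32 minus SH-SY5Y. RLE size factors gave 0.0078 and 0.016 for RBFOX2 in SK-N-BE(2)C minus IMR-32.

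Other changes of sign were of uncalled values. In SK-N-BE(2)C, summing the close replicates (3 to 5, at 7 d 4 and 5) gave -0.0045 for ELAVL2 and -0.038 for VAMP2 at 24 h and -0.025 for PTBP2 at 7 d. Replicates 1 and 2 alone gave -0.073 for ELAVL2 and -0.11 for VAMP2 at 24 h, -0.18 for PTBP2 and -0.15 for MBNL3 at 7 d and -0.27 for RBFOX1 between the treated times, and replicates 3 to 5 alone -0.015 for SV2A at 24 h. SV2A in IMR-32 at 24 h was -0.032 with RLE size factors, -0.045 with library size alone, -0.012 with no filter, -0.034 with DESeq2, -0.0058 with the block and -0.0022 in the fit of 45 libraries. Leaving out 1 library or replicate number gave, in SK-N-BE(2)C, -0.066 to 0.15 for ELAVL2, -0.049 to 0.054 for VAMP2 and -0.022 to 0.12 for SV2A at 24 h, and -0.026 to 0.13 for PTBP2 and -0.031 to 0.16 for SV2A at 7 d. In IMR-32 it gave -0.24 to 0.15 for RBFOX1, -0.14 to 0.049 for CELF2, -0.077 to 0.11 for SV2A, -1.97 to 0.37 for REST and -0.13 to 0.0024 for HDAC1 at 24 h, and -0.11 to 0.11 for PTBP2 at 5 d. In SH-SY5Y it gave -0.032 to 0.11 for NOVA1 and -0.74 to 0.35 for CELF2 at 24 h, -0.075 to 0.094 for ELAVL3 and -0.0070 to 0.032 for SV2A at 5 d, and -0.0082 to 0.080 for NOVA1 and -0.022 to 0.075 for RBFOX2 between the treated times. Among the named genes, the block also gave calls of REST at 7 d in SK-N-BE(2)C (-0.90, adjusted p = 0.0417), at 24 h in IMR-32 (-0.80, adjusted p = 0.0353) and at 5 d in SH-SY5Y (-0.50, adjusted p = 5.05e-05) and of NOVA2 at 24 h in IMR-32 (0.55, adjusted p = 0.00354).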
